A study of Mus musculus with 10 samples.

Results

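Transcripts of bone-forming cells were followed well by well in single lineage-traced skeletal cells of the mouse. The genes are the 3 osteocalcin copies *Bglap*, *Bglap2* and *Bglap3*, the type I collagen genes *Col1a1* and *Col1a2*, the alkaline phosphatase gene *Alpl* and the dentin matrix protein gene *Dmp1*. They were chosen by name and make up 7 of the 29183 genes listed for both lineages. The cells came from the hind limbs of C57BL/6 mice in which Cre switched on a *Rosa-TdTomato* reporter, under *Grem1-creERT* in *Grem1-TdT* mice and under *Lepr-cre*, which is active without induction, in *Lepr-TdT* mice. *Grem1-TdT* mice ate tamoxifen chow for 2 weeks from 5 to 6 weeks of age, and *Lepr-TdT* mice were matched to them in age. TdTomato positive *Grem1*-lineage cells were sorted from dissected articular cartilage (AC) and growth plate (GP) with no gate against blood or endothelial cells. *Lepr*-lineage cells were sorted from crushed whole bones as CD45-Ter119-CD31- cells. Each cell went into 1 well of a 96-well plate and its molecules were counted with unique molecular identifiers (UMIs), on 8 *Grem1*-lineage plates with 768 wells and 2 *Lepr*-lineage plates with 162 wells. Which *Grem1*-lineage plates hold AC cells, GP cells or both, and how many mice stand behind a plate, is not known.

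Osteoblasts lay down a matrix of type I collagen, a triple helix built from the products of *Col1a1* and *Col1a2*, and then mineralise it. *Alpl* encodes the tissue-nonspecific alkaline phosphatase, which removes a mineralisation inhibitor and releases phosphate, and is also active in hypertrophic chondrocytes. Osteocalcin is a small secreted protein with vitamin K dependent residues that binds bone mineral and is made late in osteoblast maturation, and *Dmp1* encodes a phosphoprotein of osteocytes and late osteoblasts.

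In the GENCODE annotation of GRCm38, the build that is also named mm10, the osteocalcin copies lie side by side on the minus strand of chromosome 3. *Bglap* spans chr3:88383501-88384464, *Bglap2* spans chr3:88377736-88378699 and *Bglap3* spans chr3:88368616-88372743. *Col1a1* lies at chr11:94936224-94953042 and *Dmp1* at chr5:104202613-104214102, both on the plus strand, and *Alpl* at chr4:137741733-137796384 on the minus strand. *Col1a2*, at chr6:4504814-4541544 on the plus strand, overlaps *Gm43921*, a transcript model of type TEC, on the same strand. The coding sequences of the 3 copies are shown because their likeness limits how far their counts can be told apart. They are written from the start codon to the stop codon, and capitals mark the 13 positions at which the copies are not all alike.
Bglap: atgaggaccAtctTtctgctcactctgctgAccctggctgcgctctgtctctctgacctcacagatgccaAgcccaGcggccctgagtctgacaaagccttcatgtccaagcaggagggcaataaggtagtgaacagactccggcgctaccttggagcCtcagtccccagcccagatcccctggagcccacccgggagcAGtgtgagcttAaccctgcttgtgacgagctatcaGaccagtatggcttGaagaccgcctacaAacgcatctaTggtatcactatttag
Bglap2: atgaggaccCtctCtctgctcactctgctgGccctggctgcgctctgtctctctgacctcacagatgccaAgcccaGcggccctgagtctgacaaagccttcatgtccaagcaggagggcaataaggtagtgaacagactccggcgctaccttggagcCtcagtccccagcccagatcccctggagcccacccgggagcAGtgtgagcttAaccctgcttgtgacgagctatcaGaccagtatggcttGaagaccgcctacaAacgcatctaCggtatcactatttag
Bglap3: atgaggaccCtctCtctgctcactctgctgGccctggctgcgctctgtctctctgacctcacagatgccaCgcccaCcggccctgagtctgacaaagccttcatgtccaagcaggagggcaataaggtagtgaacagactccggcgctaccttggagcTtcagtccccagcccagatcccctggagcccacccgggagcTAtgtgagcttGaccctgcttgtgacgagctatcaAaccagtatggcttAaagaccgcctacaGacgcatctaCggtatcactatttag

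Each coding sequence has 288 bases. *Bglap* and *Bglap2* differ at 4 of them (98.6% identity), *Bglap2* and *Bglap3* at 9 (96.9%) and *Bglap* and *Bglap3* at 13 (95.5%). The sequenced read of a transcript was 58 bases long, as the labels give it. All 58-base windows were taken from the first-listed transcript of each copy. Of these, 72.1% for *Bglap* and 84.1% for *Bglap2* are also found whole in another copy, against 19.4% for *Bglap3*. The last exon has 267 bases and 210 windows in each of these transcripts. There 152 windows of *Bglap* and 162 of *Bglap2* are also found in another copy, against 42 of *Bglap3*. The lower share of *Bglap3* is thus also present in a stretch of equal length. How reads that fit more than 1 copy were counted is not given in the sources used here. The rows are therefore given both singly and summed, and a level of 1 copy against another is not read as a difference in expression.

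In the *Grem1* lineage 684 of 768 wells had at least 350 detected genes and are called kept wells, and 160 of 162 did in the *Lepr* lineage. Detected genes were counted over 29183 listed genes for the *Grem1* lineage and 50508 for the *Lepr* lineage. The minimum is thus not alike for the lineages. The kept wells of a plate held 133289 to 179071 UMIs in the *Grem1* lineage, and 59981 and 64310 UMIs over the genes listed for both lineages in the *Lepr* lineage. Kept wells high for neither osteocalcin nor *Col1a1*, by the rule given below, are called the other kept wells. Wells high only for *Col1a2*, *Alpl* or *Dmp1* are among them. The 12 chondrocyte markers, among them *Col2a1*, *Acan* and *Cytl1*, had a median of 1850.7 UMIs per 10000 in the other kept wells of the *Grem1* lineage. They were at 0 in 90 of 158 such *Lepr*-lineage wells. *Lepr*-lineage wells instead carried the marrow stromal markers, with a median of 184 UMIs per 10000. Granulocyte markers were found in all of these *Lepr*-lineage wells, at 86.8 to 2897 UMIs per 10000, although the sort excluded CD45 positive cells. The 96 barcodes recur on all *Grem1*-lineage plates, and 70 of them are on all 10 plates. Wells with the barcode of a high osteocalcin well on another plate carried osteocalcin in 33.7% of cases, and the remaining wells in 33.8%. For *Col1a1* these shares were 40.3% and 31.5%. An earlier clustering of these cells set *Grem1*-lineage plates 1, 2 and 4 apart from plates 5 to 9, so values are also given for these sets.

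Bone matrix transcripts were concentrated in few wells. A well was called high for a gene when it held at least 10 UMIs of it and at least 10 times the mean of the other wells of its plate. By this description, with no test, 14 of 768 *Grem1*-lineage wells were high for summed osteocalcin and held 74.2% of its 6851 UMIs. For *Col1a1*, 11 wells held 83.7% of 3951 UMIs, and for *Col1a2*, 10 wells held 60.4% of 3393 UMIs. *Alpl* was less concentrated, with 13 high wells that held 31.6% of 534 UMIs. *Dmp1* had 68 UMIs in all, of which 2 high wells held 67.6%. In the *Lepr* lineage 1 of 162 wells was high for osteocalcin, 2 were high for *Col1a1* and *Col1a2*, 1 was high for *Alpl* and none for *Dmp1*.

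**Figure D1:**
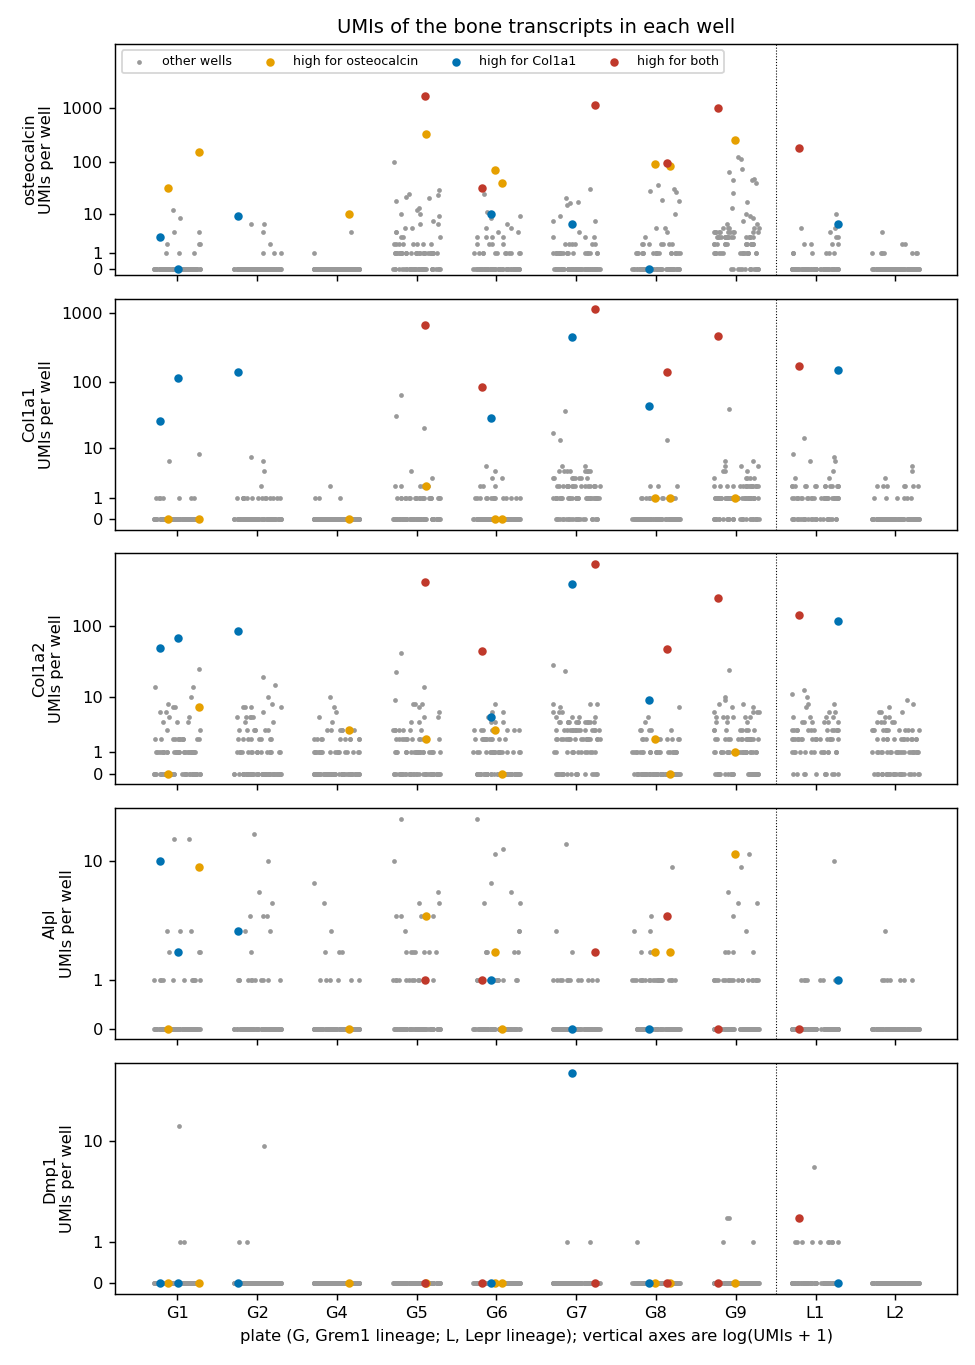
UMIs per well of summed osteocalcin, *Col1a1*, *Col1a2*, *Alpl* and *Dmp1* (rows) on the 8 *Grem1*-lineage plates (G) and 2 *Lepr*-lineage plates (L), on a log(UMIs + 1) axis, with 1 point per well. Coloured points are wells high for osteocalcin, for *Col1a1* or for both, and the highest point of plates 5, 7 and 9 reaches 1700, 1151 and 1028 osteocalcin UMIs.

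Osteocalcin, the mineral-binding protein, peaked in wells of all *Grem1*-lineage plates but plate 2. The highest wells of plates 5, 7 and 9 held 1700, 1151 and 1028 UMIs. The highest well of the other 5 plates held 153 UMIs on plate 1, 9 on plate 2, 10 on plate 4, 69 on plate 6 and 96 on plate 8. Plate 7 stood above the rest by its top well alone, with 170 UMIs in its other wells together, whereas plates 5 and 9 held 711 and 1075 UMIs outside theirs against at most 391 on the other 5 plates. The top wells of the 3 plates together held 56.6% of all *Grem1*-lineage osteocalcin UMIs. On *Lepr*-lineage plate 1 the highest well held 181 UMIs and the next 10, and on plate 2 the highest held 4. Because the rule compares a well with its own plate, a well with 10 UMIs was high on plate 4, and one with 123 UMIs was not high on plate 9.

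*Col1a1*, the major chain of type I collagen, had its highest wells on the same 3 plates. They held 1149 UMIs on plate 7, 665 on plate 5 and 473 on plate 9. The highest wells held 113 UMIs on plate 1, 139 on plate 2, 82 on plate 6 and 138 on plate 8, and on plate 4 no well held more than 2. In *Lepr*-lineage plate 1, the 2 high wells held 170 and 150 UMIs and the next 14, and on plate 2 the highest held 5. No *Lepr*-lineage well thus reached the level of the top wells of plates 5, 7 and 9.

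*Col1a2*, the partner chain, followed *Col1a1* into the same wells. Of the 11 *Grem1*-lineage wells high for *Col1a1* and the 10 high for *Col1a2*, 9 were high for both, which is 81.8% and 90.0% of them. In the top wells of plates 5, 7 and 9, *Col1a2* had 399, 713 and 242 UMIs. Unlike *Col1a1*, it was also found outside the high wells in 57.3% of *Grem1*-lineage wells, at a mean of 1.77 UMIs, against 32.0% and 0.853 UMIs for *Col1a1*. Outside its high wells *Col1a2* was found in 76.9% of *Lepr*-lineage wells and *Col1a1* in 40.0%.

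*Alpl*, the phosphatase, was mostly high in other wells than the matrix genes. No well held more than 19 UMIs of it, and its 13 high *Grem1*-lineage wells included 1 that was high for osteocalcin, with 11 *Alpl* UMIs on plate 9, and 1 that was high for *Col1a1*, with 10 on plate 1. In the other 11 neither osteocalcin nor *Col1a1* was high. This overlap depends on the minimum of 10 UMIs. As a level, *Alpl* was at 6.36 UMIs per 10000 in the summed wells high for both matrix genes, 12.8 in those high for osteocalcin alone and 14.4 in those high for *Col1a1* alone, against 3.99 in the other kept wells. It was found in 4 of 5, 6 of 9 and 4 of 6 of these wells against 25.6% of the others. These 3 kinds of wells were also deeper, with medians of 2827, 2501 and 1888.5 UMIs against 1472.5 over all kept wells. The order of the *Alpl* levels over these kinds of wells depends on the scale, since osteocalcin and *Col1a1* crowd the wells high for both. There 8 *Alpl* UMIs stood beside 4601 UMIs not of the 7 genes. In wells high for osteocalcin alone 30 stood beside 22260, and in those high for *Col1a1* alone 16 beside 9624. Single wells held 11 and 9 of the 30, and 10 of the 16. The 13 wells high for *Alpl* carried chondrocyte transcripts: *Col2a1* was found in 13 of 13 at 908 UMIs per 10000 in the summed wells, against 447 in kept wells high for neither osteocalcin nor *Col1a1*. *Col10a1*, the collagen of hypertrophic chondrocytes, was found in 9 of the 13, with a median of 3.75 and a highest value of 506 UMIs per 10000. *Cytl1* was lower in them, at 169 UMIs per 10000 against 776. These are differences between wells chosen by a transcript of the same cells and carry no test. The wells were also deep, with a median of 3591 UMIs against 1472.5 over all kept wells, and a minimum of 10 UMIs is reached more readily at depth.

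*Dmp1*, the osteocyte and late osteoblast gene, was found in 14 of 768 *Grem1*-lineage wells and 12 of 162 *Lepr*-lineage wells. Its 2 high wells held 33 UMIs on plate 7 and 13 on plate 1, and a well on plate 2 held 9. The plate 7 well was also high for *Col1a1* (448 UMIs) and *Col1a2* (383 UMIs) and held 6 osteocalcin UMIs. The plate 1 well held 0 UMIs of *Col1a1* and of each osteocalcin copy and 1 of *Col1a2*. On plates 4, 5 and 6 no *Dmp1* UMI was found in any well, although the top well of plate 5 held the most osteocalcin of all. In the *Lepr* lineage all 18 *Dmp1* UMIs were on plate 1, at most 6 in a well.

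Osteocalcin and *Col1a1* peaked together in some wells and apart in others. In the *Grem1* lineage 5 wells on 5 plates were high for both, which is 35.7% of the wells high for osteocalcin and 45.5% of those high for *Col1a1*. They were the wells with most UMIs of the 7 genes on plates 5, 6, 7, 8 and 9 and held 32 to 1700 osteocalcin UMIs and 82 to 1149 *Col1a1* UMIs. Another kind of well, 9 on 6 plates, was high for osteocalcin with *Col1a1* at 0 to 2 UMIs and *Col1a2* at 0 to 7, and its osteocalcin reached 334 UMIs. The last kind, 6 on 5 plates, was high for *Col1a1* at 26 to 448 UMIs with 0 to 10 osteocalcin UMIs. In the *Lepr* lineage 1 well was high for both and 1 for *Col1a1* alone, both on plate 1. Plates 1, 2 and 4 held 3 wells high for osteocalcin and 3 high for *Col1a1*, and none high for both.

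**Figure D2:**
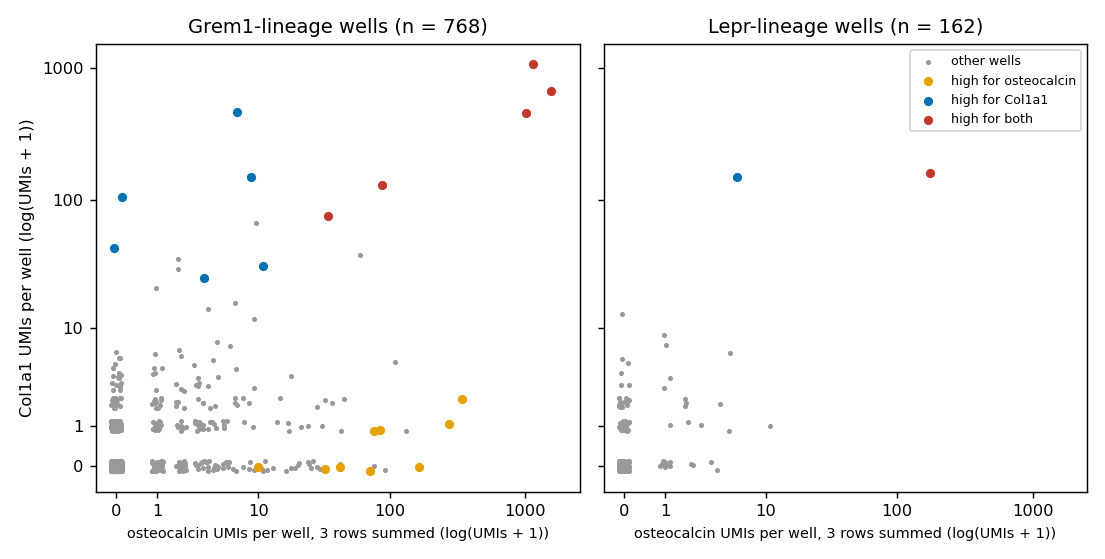
Summed osteocalcin UMIs (horizontal) against *Col1a1* UMIs (vertical) per well, both on log(UMIs + 1) axes, for 768 *Grem1*-lineage and 162 *Lepr*-lineage wells, with small shifts added so that points do not hide each other. The 5 *Grem1*-lineage wells high for both lie at the upper right, the 9 high for osteocalcin alone along the bottom at 0 to 2 *Col1a1* UMIs, and the 6 high for *Col1a1* alone at the upper left.

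In the wells high for both, the 7 genes made up much of all RNA counted. They were 72.8% of the 3799 UMIs of such a well on plate 5, 65.5% of 4606 on plate 7, 61.7% of 2827 on plate 9, 41.6% of 690 on plate 8 and 24.8% of 650 on plate 6. The last 2 wells had 274 and 219 detected genes and were therefore not among the kept wells. In the wells high for osteocalcin alone the 7 genes took 0.629% to 23.8% of the UMIs, with a median of 2.68%, and in the other kept wells a median of 0.152%. In the *Lepr*-lineage well high for both they took 21.6% of 2294 UMIs, a total that includes genes listed for that lineage only. Over the genes listed for both lineages this well held 1237 UMIs, of which 495 were of the 7 genes. The 21.6% is thus not set against the *Grem1*-lineage shares.

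The 84 *Grem1*-lineage wells under 350 detected genes held 468 of the 3951 *Col1a1* UMIs, or 118 per 10000 UMIs of those wells against 29.5 in kept wells. Few wells carried these values, with 249 of the 468 UMIs in 3 high wells and 3056 of the 3483 UMIs of kept wells in 8. Without the high wells *Col1a1* was at 57.7 against 3.68 UMIs per 10000. Wells that were not high reached 63 UMIs on plate 5, where all wells held 820 *Col1a1* UMIs and the kept wells 737. This difference may thus still rest on few wells. Osteocalcin was at 62.8 against 55.8 UMIs per 10000, and at 31.7 against 14.4 without the wells high for it.

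Chondrocyte markers set the 3 kinds of *Grem1*-lineage wells side by side. Because the bone genes crowd the UMIs of some wells, marker levels are given here per 10000 UMIs that are not of the 7 genes. In the 5 wells high for both, the 12 chondrocyte markers lay between 769 and 1107, with a median of 886, and in the 6 wells high for *Col1a1* alone between 282 and 1272, with a median of 667. In the 9 wells high for osteocalcin alone they lay between 1216 and 2653, with a median of 2047, above each of the wells high for both. The 667 other kept wells had a median of 1856, and 13.5% of them were at or below the highest of the wells high for both. These are descriptions, since the wells were chosen by transcripts of the same cells.

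**Figure D3:**
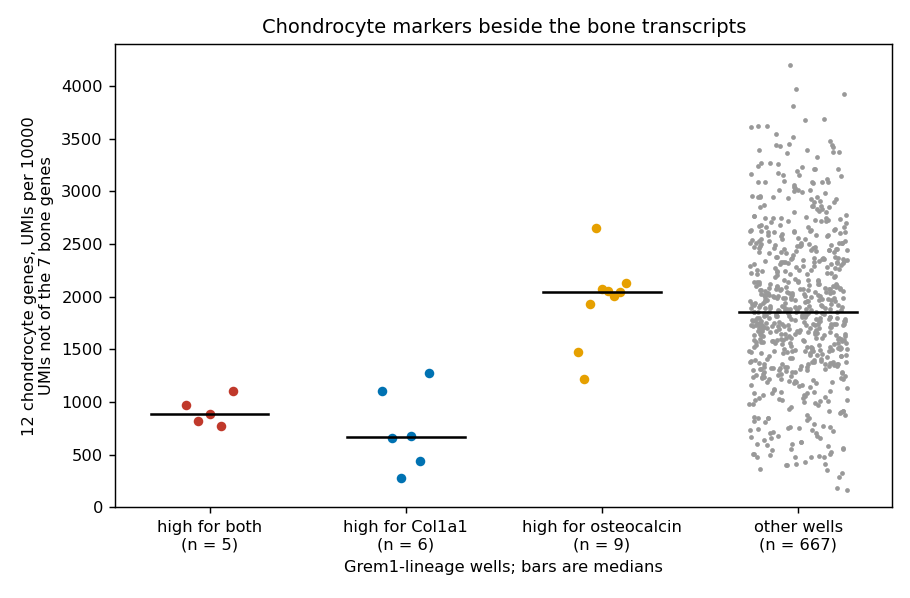
Summed UMIs of 12 chondrocyte markers per 10000 UMIs not of the 7 bone genes (vertical) in *Grem1*-lineage wells high for both osteocalcin and *Col1a1* (5), for *Col1a1* alone (6), for osteocalcin alone (9) and in 667 other kept wells, with bars at the medians. The wells high for both lie at 769 to 1107 and those high for osteocalcin alone at 1216 to 2653.

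One by one, 9 of the 12 markers were lower in the summed wells high for both than in those high for osteocalcin alone, and 3 were higher. The 3 were *Cytl1* and the type XI collagen genes *Col11a1* (137 against 93.9) and *Col11a2* (152 against 74.1). In the wells high for *Col1a1* alone 11 of the 12 were lower than in those high for osteocalcin alone, all but *Cytl1*. *Col2a1*, the collagen of cartilage, had 143 UMIs per 10000 non-bone UMIs in the summed wells high for both, 181 in those high for *Col1a1* alone, 739 in those high for osteocalcin alone and 449 in the other kept wells. *Acan*, the large cartilage proteoglycan, had 8.69, 11.4, 46.3 and 46.6. *Cnmd*, which encodes chondromodulin, ran from 0 to 129 over the wells high for both and from 109.8 to 379.6 over those high for osteocalcin alone. *Cytl1*, found in all wells of the 4 kinds, was at 349.9, 342, 223 and 779. Of the 118 *Col10a1* UMIs in the wells high for *Col1a1* alone, 111 were in the top well of plate 1, which also held 113 *Col1a1* UMIs and none of osteocalcin. No chondrocyte marker but *Epyc* was at 0 over all 5 wells high for both. Whether these transcripts were of the cell in the well was not tested.

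In the *Lepr*-lineage well high for both, *Col2a1* and *Acan* were at 0 and the chondrocyte markers at 33.4 per 10000 non-bone UMIs. Bone genes that are listed for this lineage only could be read beside it. *Sparc*, which encodes the matrix protein osteonectin, was at 244 UMIs per 10000 in this well and 329 in the well high for *Col1a1* alone, against 25.2 in the summed other kept wells. *Serpinf1*, whose loss causes brittle bones, was at 52.3 and 37.2 against 2.06. The bone sialoprotein gene *Ibsp*, at 52.3 and 31.0 against 66.4, and the osteopontin gene *Spp1*, at 26.2 and 6.20 against 34.8, were not higher there. The osteoblast transcription factor gene *Sp7* had 1 UMI in the well high for both and 2 in the 158 other kept wells, *Runx2* had none in either high well and 12 in the other kept wells, and the osteocyte genes *Mepe* and *Sost* none in any kept *Lepr*-lineage well. At 2294 and 1612 UMIs per well, counts of 0 or 1 do not show whether these genes differed.

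Other bone genes went in both directions in the *Grem1*-lineage wells. Of the 30 genes of the bone list with any UMI, 11 were higher in the summed wells high for both than in the other kept wells and 19 lower, 12 of them at 0, as UMIs per 10000 of all UMIs. Per 10000 UMIs not of the 7 genes, 17 were higher and 13 lower. The wells high for osteocalcin alone had 11 higher and 19 lower, and those high for *Col1a1* alone 14 higher and 16 lower, on either scale. The next values are per 10000 of all UMIs. *Col5a2*, whose product joins type I collagen in fibrils, was at 18.3 in wells high for both and 12.6 in wells high for *Col1a1* alone, against 2.14 in those high for osteocalcin alone and 1.75 in the other kept wells. *Gja1*, the gap junction gene of osteoblasts and osteocytes, was at 11.9 and 37.8 against 3.42 and 3.80. *Cdh2*, the N-cadherin gene, had 5 UMIs in the 5 wells high for both and 3 in the 667 other kept wells. *Cthrc1*, a collagen triple helix repeat gene, was at 10.7 in wells high for osteocalcin alone and 9.01 in those high for *Col1a1* alone. It was at 1.59 in wells high for both and 1.16 elsewhere. Per 10000 UMIs not of the 7 genes its values were 11.2, 10.4, 4.35 and 1.16 in this order. Among the lower genes, *Enpp1*, which makes pyrophosphate, was at 0 in wells high for both, 1.28 in those high for osteocalcin alone and 0.901 in those high for *Col1a1* alone, against 4.71 in the other kept wells. The transcription factor genes *Ets1* and *Dlx5* were at 0 in wells high for both, against 2.85 and 1.48 elsewhere. So was *Fam20c*, the kinase gene of secreted phosphoproteins, against 1.504 elsewhere. Together the 5 wells high for both held 4601 UMIs not of the 7 genes, so a count of 0 there does not show that a gene was lower. Markers of osteoclasts, erythroid cells, B cells and endothelium were at or below 3.60 UMIs per 10000 in each of the 3 kinds of *Grem1*-lineage wells, and the 3 granulocyte markers at or below 7.27 UMIs per 10000. In the other kept wells these 5 lists were at 1.85, 0.343, 4.42, 0.185 and 9.42, in the order named. Only 4 of 5, 2 of 7, 3 of 4, 3 of 5 and 3 of 8 of their genes are listed for this lineage. For fibroblasts it is 5 of 7. Low values thus do not show that such cells were absent. Fibroblast markers, with *Fbln1* at 0 in all 3, were at 45.3 in wells high for both and 42.8 in those high for osteocalcin alone. They were at 122.5 in those high for *Col1a1* alone and 140.01 in the other kept wells. Per 10000 UMIs not of the 7 genes they were at 123.9, 44.9, 141.3 and 140.5 in the same order. The part that cells of these types have in the high wells was not tested, and no doublet caller was run.

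The osteocalcin rows rose and fell together. In the *Grem1* lineage all 10 wells high for *Bglap2* were high for *Bglap*, and 12 of 13 wells high for *Bglap* were high for *Bglap3*. Over the 684 kept wells, log(1 + UMIs per 10000) had a Pearson correlation of 0.67 between *Bglap* and *Bglap2*, 0.72 between *Bglap* and *Bglap3* and 0.78 between *Bglap2* and *Bglap3*. These wells share plates and depth, and the copies share sequence as shown above. Without the wells high for any of the genes, the same correlations over 653 wells were 0.57, 0.62 and 0.67.

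The 3 copies were counted in like shares in the 3 wells with the most osteocalcin. In the top well of plate 5, with 800 *Bglap*, 360 *Bglap2* and 540 *Bglap3* UMIs, *Bglap* made up 47.1%, *Bglap2* 21.2% (exact 95% binomial interval 19.3% to 23.2%) and *Bglap3* 31.8% (29.6% to 34.0%). The top well of plate 7 had 48.6%, 20.2% and 31.3%, and that of plate 9 had 51.8%, 19.1% and 29.1%. Over the 14 high wells of the *Grem1* lineage the *Bglap2* share was 19.7% ± 9.67 (SD, n = 14 wells) and that of *Bglap3* 33.8% ± 4.40. The *Bglap2* share ran from 19.1% to 35.4% in the 5 wells high for both and from 0% to 30.1% in the 9 high for osteocalcin alone. These ranges overlap. The share of 0% came from a plate 4 well with 10 osteocalcin UMIs, for which the interval reaches 30.9%.

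*Bglap3* took a larger share in the *Lepr*-lineage well high for both. With 81 *Bglap*, 21 *Bglap2* and 79 *Bglap3* UMIs, its share was 43.6% (36.3% to 51.2%), and that of *Bglap2* was 11.6% (7.33% to 17.2%). Its *Bglap3* share was above that of each *Grem1*-lineage high well, of which the highest had 40.0% of 10 or of 40 UMIs. This is 1 well, so lineage, plate and cell cannot be told apart. Intervals cover counting error only.

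**Figure D4:**
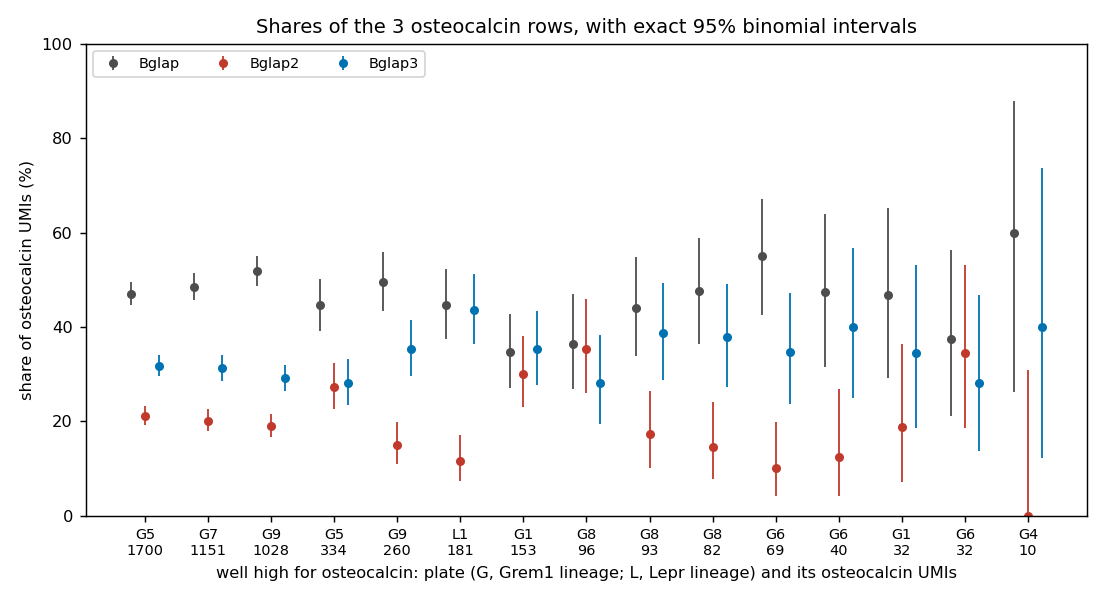
Share of summed osteocalcin UMIs counted to *Bglap*, *Bglap2* and *Bglap3* (vertical, in %) in each of the 15 wells high for osteocalcin, in order of their osteocalcin UMIs, with exact 95% binomial intervals. In the 3 wells over 1000 UMIs the shares lie at 47.1% to 51.8%, 19.1% to 21.2% and 29.1% to 31.8%.

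Outside the 14 high wells of the *Grem1* lineage, osteocalcin was still found in 261 of 754 wells. *Bglap* was found in 233 of these wells, *Bglap2* in 117 and *Bglap3* in 95, and all 3 in 63. *Bglap* was found without the other copies in 116 wells and *Bglap3* without the others in 5. The UMIs of these wells split as 972, 301 and 498 over the copies. *Bglap* was thus the copy found most often, and *Bglap3* the one least often found by itself.

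This low signal differed between plates. On plates 5, 7 and 9, whose top wells held over 1000 osteocalcin UMIs, the wells that were not high had a mean of 1.79 to 8.67 UMIs, and 38.9% to 85.1% of them had at least 1. On the other 5 *Grem1*-lineage plates the mean was 0.0526 to 2.32 and the share 2.11% to 37.6%. The ranges of the mean overlap, since plate 8 (2.32) lay above plate 7 (1.79). For *Col1a1* the *Grem1*-lineage plates did not overlap. With a top well over 400 UMIs, on the same 3 plates, other wells had a mean of 1.63 to 2.14 UMIs and 34.7% to 75.5% had at least 1, against 0.0521 to 0.372 UMIs and 4.17% to 22.3% on the other *Grem1*-lineage plates. *Lepr*-lineage plate 1 did not follow this order, since its top well held 170 *Col1a1* UMIs and its other wells a mean of 1.42, with 64.9% of them at 1 or more.

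The ratio of the genes in these wells was compared with that in the high wells of the same plate. On plate 7 there were 0.724 osteocalcin UMIs per *Col1a1* UMI in the 2 high wells and 0.816 in the 94 others. On plate 5 the ratios were 3.05 and 2.46. On plate 9 they were 2.72 and 5.09, on plate 8 they were 1.48 and 6.75 and on plate 6 they were 1.36 and 3.09, so that other wells there held more osteocalcin for their *Col1a1* than the high wells did. The number of *Col1a2* UMIs per *Col1a1* UMI was higher in the other wells on each of these 5 plates, with 1.37 to 2.91 against 0.328 to 0.686. It was also higher there on *Grem1*-lineage plates 1 (8.48 against 0.914) and 2 (5.12 against 0.619). On *Lepr*-lineage plate 1 it was 1.91 against 0.819. The high wells were chosen by their counts of these genes, which shapes such ratios. Whether low counts of these genes were of the cell in the well was not tested.

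Whether osteocalcin and *Col1a1* were detected in the same kept wells was tested over plates. The log odds ratio of finding any UMI of both was 0.58 ± 0.37 (SD, n = 8 *Grem1*-lineage plates) and was above 0 on 7 of 8 plates (p = 0.0156 by an exact permutation of the signs of the plate values, two-sided, where the smallest possible p is 0.00781). It was 1.04 on plate 1, 0.73 on plate 2, 1.02 on plate 4, 0.56 on plate 5, 0.33 on plate 6, 0.44 on plate 7, 0.64 on plate 8 and -0.09 on plate 9. The plate 4 value rests on no well with both, and comes from the 0.5 added to each cell of the table. On the *Lepr*-lineage plates it was 0.42 and 0.24. Detection moves with depth: wells with osteocalcin had a median of 1861.5 UMIs and wells without it 1305. When each well was thinned to 796 UMIs and 68 shallower wells were left out, the log odds ratio was 0.29 ± 0.76 (n = 8), above 0 on 5 plates, and no longer past the threshold (p = 0.305 by the same exact permutation). With 0.1 added in place of 0.5 the value was 0.40 (p = 0.0547 by the same permutation test). Joint detection beyond depth was thus not shown at these depths.

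The levels of the genes were then compared between lineages on UMIs summed over the kept wells of each plate, as CPM, which are counts scaled to an equal library size after TMM normalisation. In such sums fewer cells with a transcript and less transcript per cell cannot be told apart. Of the 7 genes, all passed the filter on low counts and 1 passed the test, *Alpl*, which was lower in the *Lepr* lineage (edgeR quasi-likelihood test, Benjamini-Hochberg adjusted over 2944 genes). Of all genes tested 29.0% were called in either direction, and 16.8% as lower in the *Lepr* lineage, so 1 of 7 is no more than this background.

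*Alpl* had a lowest value of 218, a median of 510 and a highest of 808 CPM on the 8 *Grem1*-lineage plates, and 239 and 140 CPM on the 2 *Lepr*-lineage plates. The groups overlap, since *Grem1*-lineage plate 4 lay below *Lepr*-lineage plate 1. The log2 fold change was -1.37 ± 0.45 (SE, adjusted p = 0.0313 by edgeR). Without *Lepr*-lineage plate 1 the adjusted p was 0.0536, without plate 2 it was 0.215, and against *Grem1*-lineage plates 1, 2 and 4 alone it was 0.117. The call thus did not hold without either *Lepr*-lineage plate.

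*Bglap* ran from 78.2 to 7896 CPM with a median of 1311 over the *Grem1*-lineage plates, and was at 1368 and 84.2 CPM on the *Lepr*-lineage plates. *Bglap2* ran from 0 to 3389 CPM with a median of 482 against 412 and 70.1, and *Bglap3* from 40.5 to 5066 CPM with a median of 927 against 1301 and 56.1. The 2 *Lepr*-lineage plates lay within the range of the *Grem1*-lineage plates for all 3 copies, and differed from each other by more than 5 times for each of them. The log2 fold changes of -2.12 ± 1.48, -2.34 ± 1.50 and -1.52 ± 1.35 (SE) did not pass the test (adjusted p = 0.295, 0.256 and 0.423 by edgeR). The plates of the *Grem1* lineage were themselves unlike, with 121 to 1643 CPM of summed osteocalcin on plates 1, 2 and 4 and 1868 to 16352 CPM on plates 5 to 9. Against plates 5 to 9 alone, *Bglap* (-2.72 ± 0.96, adjusted p = 0.0441) and *Bglap2* (-2.91 ± 0.93, adjusted p = 0.0284) passed the edgeR test, and against plates 1, 2 and 4 alone the fold changes were 1.50, 0.61 and 1.60 with none past it.

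*Col1a1* ran from 40.5 to 16936 CPM with a median of 1213 on the *Grem1*-lineage plates and was at 5629 and 449 CPM on the *Lepr*-lineage plates (log2 fold change -0.27 ± 1.33, adjusted p = 0.898). *Col1a2* ran from 623 to 12958 CPM with a median of 2035 and was at 6094 and 2188 CPM (0.35 ± 0.85, adjusted p = 0.788). *Dmp1* was at 0 on 3 *Grem1*-lineage plates and on *Lepr*-lineage plate 2, had a highest value of 341 CPM on *Grem1*-lineage plate 7 and was at 239 CPM on *Lepr*-lineage plate 1 (0.83 ± 1.30, adjusted p = 0.666). For all 3 the groups overlap and the standard error is larger than the difference. Without the wells high for any of the 7 genes, *Col1a1* was at 0.99 ± 0.80 (adjusted p = 0.365) and *Col1a2* at 1.02 ± 0.39 (adjusted p = 0.0575) by edgeR, so the direction for *Col1a1* turned when these wells were left out.

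Other genes of osteoblast function were read from the same fit. Of 31 genes listed for both lineages, 24 passed the filter, of which 13 were lower and 4 higher in the *Lepr* lineage and 7 were not called. Over all genes tested 16.8% were lower and 12.2% higher. The list had a median log2 fold change of -1.499 against -0.11 over all genes tested. The median is the same when the 2 genes at 0 in the *Lepr* lineage are set to their bounds. Of the collagen-modifying genes, *Fkbp10* (-1.93 ± 0.34, adjusted p = 0.000514) and *Crtap* (-2.50 ± 0.43, adjusted p = 0.000488), both of which act on procollagen in the endoplasmic reticulum, were lower, as was *Col5a2* (-1.66 ± 0.54, adjusted p = 0.0310). *Enpp1* and *Ank*, which supply the mineralisation inhibitor pyrophosphate, were lower by edgeR's test at -2.39 ± 0.44 (adjusted p = 0.000734) and -2.44 ± 0.53 (adjusted p = 0.00264). *Frzb*, a Wnt antagonist gene of articular cartilage, and *Cbfb*, which encodes the partner of the Runx factors, had 283 and 114 UMIs in the *Grem1* lineage and none in the *Lepr* lineage. Against a floor of 3 UMIs over both *Lepr*-lineage plates they were at least 13.7-fold and 5.54-fold lower. *Cdh11*, which encodes the cadherin of mesenchymal cells and osteoblasts (4.09 ± 0.34, adjusted p = 4.65e-07), *Cdh2* (3.71 ± 0.87, adjusted p = 0.00451), *Bmp4* (3.25 ± 0.66, adjusted p = 0.00153) and *Gja1* (1.497 ± 0.26, adjusted p = 0.000464) were higher. Many of the genes that were lower are also transcribed in cartilage, whose markers were at 0 in 90 of 158 *Lepr*-lineage wells as given above, and the part of cartilage cells in these differences was not tested.

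The genes whose pattern over kept wells was most like that of the bone genes were only weakly alike. For summed osteocalcin in the *Grem1* lineage they were *Fxyd2* (Pearson's r = 0.30 over 684 wells), *Ccdc80* (0.29), *Col11a2* (0.29), *Actb* (0.28) and *2810474O19Rik* (0.26), and for *Col1a1* they included *Adamts2* (0.22), *Car3* (0.20), *Cnn2* (0.19) and *Actb* (0.16). *Adamts2* had UMIs in 13 of the 684 wells. In the *Lepr* lineage the highest values over 160 wells were 0.37 for *Rpl21* with osteocalcin and 0.40 for *Gm28056* with *Col1a1*, which had UMIs in 13 and 10 wells. Osteocalcin itself had a correlation of 0.31 with *Col1a1*, 0.16 with *Col1a2*, 0.25 with *Alpl* and 0.08 with *Dmp1* in the *Grem1* lineage, and *Col1a1* had 0.35 with *Col1a2*. In counts this sparse such values are given as a description only.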

How the data were processed

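UMI counts of 8 *Grem1*-lineage and 2 *Lepr*-lineage plates were used as deposited, whole-number counts per gene and well with no normalisation by the authors. The submitters' processing notes name UMI-tools, STAR, featureCounts, SAMtools and mm10 with no settings, so the treatment of reads that fit several copies is not given in the sources used here. For the *Grem1* lineage, 29183 complete rows were used and 1 incomplete row was left out, and for the *Lepr* lineage 50508 rows were used. Wells had a median of 1472.5 (*Grem1*) and 1222 (*Lepr*) UMIs after the minimum of 350 genes, which leaves single-well counts of a few UMIs imprecise. Intervals are exact binomial at 95%.

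The members and gene lists were chosen with earlier results of these data known. Named are the 7 genes, the 5 genes most correlated with *Col1a1* and with summed osteocalcin per lineage (UMIs in at least 10 wells; 1 of them is not reported here), and genes of the marker and bone lists. The plate sums were tested with edgeR 4.0.16 in R 4.3.3 (TMM, filterByExpr, quasi-likelihood, Benjamini-Hochberg at 0.05), with the plate as replicate. Nothing says that plates came from separate mice, so p-values measure the spread between plates. Standard errors are the fold change over the root of F and are approximate. In simulated counts for this comparison (2634 genes) edgeR recovered 8.51%, 68.2% and 82.8% of genes changed by 2, 4 and 8 times. Counts of every gene were drawn there with the same common dispersion. These rates thus do not cover genes that varied more between plates, and the spread of each member was not simulated. Alternatives were DESeq2 1.42.0, its size factors, filters, other well sets, summed copies, each plate left out and a replicate block. The split of plates 1, 2 and 4 from 5 to 9 was added after the data were seen. Coding sequences and gene positions are from GENCODE M21. Python 3.11.15 with SciPy 1.17.1 was used otherwise.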

Additional observations from a re-analysis of the deposited data

Results flagged for a closer look

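*Grem1*-lineage plate 7 lay far above the other 7 plates for 3 genes, by a gap to the nearest plate that was over 0.526 of the whole range. *Col1a1* was at 16936 CPM there against 5026 on the next plate, *Col1a2* at 12958 against 3757, and *Dmp1* at 341 against 110. Of the *Col1a1* UMIs of the plate, 88.8% were in 2 wells, which also held 79.9% of its *Col1a2* UMIs, and 1 of these wells held 33 of its 35 *Dmp1* UMIs. Without this plate the log2 fold changes between lineages were 0.75 for *Col1a1*, 1.14 for *Col1a2* and 1.84 for *Dmp1*, none past the threshold.

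Of the 6 *Grem1*-lineage plates with at least 50 osteocalcin UMIs, plate 1 had the highest share of *Bglap2*, 27.1% of 225 UMIs against 20.8% on the next plate, a gap over 0.625 of the range. Of these 225 UMIs 153 were in 1 well, where the share was 30.1% (exact 95% binomial interval 22.9% to 38.0%). Chance flags about 1 in 20 such groups, and 11 were examined.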

How the results depend on the processing

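The number of genes called between lineages, 853, stayed within 1.5 times under 19 of 22 alternatives. It was 489 on plates 1 and 2 of each lineage with the plate number as a replicate block and 451 on those plates without it, and 529 to 850 with each plate left out in turn, lowest without *Lepr*-lineage plate 2. A left-out *Lepr*-lineage plate leaves 1 in that arm, which is assumed to vary like the others. Nothing says that same-numbered plates share more than a number. The differences between plates 1 and 2 in the 2 lineages had a correlation of 0.06 across genes. This is 1 difference per lineage, which cannot show whether such plates share a batch.

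*Alpl* stayed lower in the *Lepr* lineage in all 22 alternatives, from -1.91 to -1.08, and lost its call in 3. With no filter on low counts *Bglap*, *Bglap2* and *Bglap3* passed the threshold (-2.32, -2.54 and -1.72, with standard errors of 0.39, 0.40 and 0.37 against 1.48, 1.50 and 1.35). The 3 copies turned to 0.86, 0.24 and 0.82 on plates 1 and 2 with the replicate block, to 1.05, 0.027 and 1.08 without it, and to 1.50, 0.61 and 1.60 against plates 1, 2 and 4 alone. *Col1a1* turned to 0.86 without the top well of each plate, 0.99 without all high wells, 0.51 with the replicate block, 1.34 on the same plates without it and 1.93 against plates 1, 2 and 4, and with each plate left out ran from -3.11 to 0.75. *Col1a2* ran from -0.65 to 1.14 and *Dmp1* from -6.04 to 1.84 with each plate left out, lowest without *Lepr*-lineage plate 1, and *Dmp1* was at -0.0032 with the replicate block. The cause was not tested.

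The joint detection of osteocalcin and *Col1a1* stayed above 0 in all 16 alternatives, and with each plate left out ran from 0.52 to 0.68. It no longer passed the threshold at 0.29 after thinning, 0.40 with 0.1 added, 0.28 with *Col1a2* in place of *Col1a1*, 0.93 on plates 1, 2 and 4 and 0.38 on plates 5 to 9, where 3 and 5 plates cannot reach it. It was 1.46 with at least 2 UMIs. Wells high for any of the 7 genes numbered 36, and 19 with at least 20 UMIs, where no well was high for *Alpl*. The 6 wells high for both osteocalcin and *Col1a1* were 4 to 7 over the alternatives.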
